A study of Rattus norvegicus with 32 samples.

Results

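The genes described here are 37 genes of the cell cycle and of proliferation, chosen by name from known roles in DNA replication, mitosis and cell division. Of these, 36 had their own entry among the 28914 genes of the count files, and Ccnb2 was not analysed here. Expression was measured by RNA-seq of total RNA in the nucleus accumbens (NAc), the dentate gyrus (DG), the cornu ammonis (CA) of the hippocampus and the subventricular zone (SVZ) of adult male Sprague-Dawley rats. Rats received methamphetamine (METH) at 10 mg/kg, or saline (Sal), in 4 intraperitoneal injections 2 h apart, and per the study's methods brains were collected 24 h past the final injection. Each region and treatment gave 4 samples, 32 in all, and a sample is called by its region, treatment and replicate. The methods describe the dissection of all 4 regions from a brain, so that libraries of different regions may share a rat. The labels do not map them, and the fits take the libraries as independent. No group carried a genetic change, and the saline rats received the same number of injections as the METH rats.

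A dividing cell copies its DNA in S phase, for which the MCM helicase is loaded on replication origins, and then separates the copies in mitosis under the control of cyclin B and Cdk1, the Aurora and Polo-like kinases and the spindle checkpoint, before cytokinesis parts the daughter cells. Most of these genes are transcribed in S, G2 or M phase and are nearly silent in resting cells such as neurons. In the adult rodent brain dividing cells are concentrated in the SVZ and in the subgranular zone of the DG, where neural stem cells and their progeny give rise to new neurons, while oligodendrocyte precursors divide throughout the tissue. In bulk tissue, fewer cells of a type and less RNA per cell cannot be told apart.

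Many promoters of this group carry CCAAT boxes bound by NF-Y, together with the cell cycle homology region (TTTGAA, bound by the MuvB complex) or E2F sites. The promoters of the 4 genes with the smallest p in the METH comparison of the CA are shown, since the results turn most on them. Each runs from 250 bases before to 50 bases after the transcription start (RefSeq, build GRCr8) and reads 5′ to 3′ on the strand of the gene, which is the minus strand for all 4. Capitals mark CCAAT boxes, TTTGAA elements and the E2F forms TTCCCGC in first place, TTCGCGC in the next, then TTGCCGC, followed by TTGGCGC, searched on both strands, so that ATTGG, like TTCAAA, is a match on the opposite strand.
Top2a (chr10:84473044-84473343): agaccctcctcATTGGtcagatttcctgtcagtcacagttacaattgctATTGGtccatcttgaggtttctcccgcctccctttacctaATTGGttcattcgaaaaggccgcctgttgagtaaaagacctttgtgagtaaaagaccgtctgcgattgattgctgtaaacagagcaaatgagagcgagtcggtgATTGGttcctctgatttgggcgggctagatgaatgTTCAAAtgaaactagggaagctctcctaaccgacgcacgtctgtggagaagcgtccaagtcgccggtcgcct
Ect2 (chr2:111966577-111966876): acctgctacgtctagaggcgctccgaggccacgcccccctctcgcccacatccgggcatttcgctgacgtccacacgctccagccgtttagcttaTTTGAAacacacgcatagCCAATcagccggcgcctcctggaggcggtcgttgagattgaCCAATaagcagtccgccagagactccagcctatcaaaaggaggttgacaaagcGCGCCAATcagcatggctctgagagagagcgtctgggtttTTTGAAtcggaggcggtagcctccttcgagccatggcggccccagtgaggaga
Cenpf (chr13:103760837-103761136): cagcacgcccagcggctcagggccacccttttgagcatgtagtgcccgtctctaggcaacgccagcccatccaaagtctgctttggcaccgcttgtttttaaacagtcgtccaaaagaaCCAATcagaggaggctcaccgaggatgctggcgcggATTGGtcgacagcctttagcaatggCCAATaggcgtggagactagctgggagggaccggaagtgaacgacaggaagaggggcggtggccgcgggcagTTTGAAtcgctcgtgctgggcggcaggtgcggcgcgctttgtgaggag
Mcm2 (chr4:122918045-122918344): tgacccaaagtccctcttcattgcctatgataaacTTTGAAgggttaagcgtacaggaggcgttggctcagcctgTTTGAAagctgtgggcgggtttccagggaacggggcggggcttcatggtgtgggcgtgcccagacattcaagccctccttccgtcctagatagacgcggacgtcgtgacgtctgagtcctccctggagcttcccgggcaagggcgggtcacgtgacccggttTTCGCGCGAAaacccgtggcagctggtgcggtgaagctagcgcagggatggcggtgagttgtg
The 3 mitotic genes held several CCAAT boxes, 4 in Top2a, 3 in Ect2 and 3 in Cenpf, and each held at least 1 TTTGAA. Mcm2 held 0 CCAAT boxes, 2 TTTGAA and 2 E2F matches that overlap each other, and the single E2F match of Ect2 overlaps a CCAAT box. A promoter window was given for 31 of the 37 genes. CCAAT was found in 24 of these 31 (77.4%) and in 37.5% of 33469 windows of the same length, TTTGAA in 17 (54.8%) against 18.3%, and an E2F form in 12 (38.7%) against 9.52%.

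The libraries held 11094002 to 21869773 reads on genes. Of these, 1472 to 10516 fell on the 36 cell cycle genes, the lowest number in DG Sal 2 and the highest in SVZ METH 1. Levels are given in CPM, the reads of a gene relative to library sizes scaled by the upper quartile, so that 1 read was worth 0.0460 to 0.0940 CPM. Values in a series are in the order of replicates 1 to 4. Several libraries stood apart from their group in marker genes of other cells. The summed level of 8 markers of striatal medium spiny neurons was 2011 CPM in DG Sal 3, against 178 to 471 CPM in the other DG libraries, and 268 CPM in NAc METH 3, against 1719 to 9071 CPM in the other NAc libraries. In the SVZ, 8 markers of mature oligodendrocytes summed to 19217, 26462 and 28158 CPM in Sal 1, METH 2 and METH 4 and to 3981 to 9725 CPM in the other 5, and those 3 libraries held 240 to 904 CPM of the striatal markers, against 1762 to 6457 CPM in the other 5. Choroid plexus markers, 8 in number, summed to 8454 CPM in SVZ METH 3, 6372 CPM in DG METH 3, 2253 CPM in DG Sal 4 and 2238 CPM in CA Sal 2, and to 2.19 to 399 CPM in the other 28 libraries. Prox1, which marks granule neurons of the DG, was at 26.1 to 150.5 CPM in DG Sal and at 33.2 to 296 CPM in CA Sal, so that it did not separate the DG from the CA. By the library numbers in the file headers, SVZ METH 1 and 2 share a number, as do SVZ METH 3 and 4, and DG libraries 1 and 2 of each treatment carry numbers that belong to the other treatment in the NAc and CA. The results below use the labels.

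In saline rats the highest level per length was that of a replication gene. Pcna, the sliding clamp of DNA polymerase, was the highest in each region, at 15.7 ± 1.42 CPM per kb in the CA and 20.5 ± 1.88 CPM per kb in the SVZ (mean ± SD, n = 4). Mcm7, a subunit of the MCM helicase, was at 5.56 ± 0.547 CPM per kb in the CA and 9.92 ± 1.22 CPM per kb in the SVZ. The replication genes did not lead as a class. In the CA, Mcm3 was at 0.413 CPM per kb, below the spindle gene Hmmr at 1.69 CPM per kb, and the cytokinesis gene Anln at 6.32 CPM per kb lay above Mcm7. Mki67, the marker gene of cycling cells, was at 0.976 ± 0.222 CPM per kb in the DG and 1.9 ± 1.31 CPM per kb in the SVZ. At the other end, Bub1b, a kinase-like protein of the spindle checkpoint, was at 0.113 ± 0.0544 CPM per kb in the CA and 0.423 ± 0.363 CPM per kb in the SVZ. Cdk1, the kinase that drives entry into mitosis, was at 0.266 ± 0.16 and 1.01 ± 0.758 CPM per kb in the same regions. Outside the SVZ some of the mitotic genes rested on few reads. Cdk1 had 5, 9, 6 and 2 reads in the CA Sal libraries and 5, 47, 17 and 42 reads in the SVZ Sal libraries.

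For 4 members the level depended on which deposited counts were taken. The matrix of the whole series, for which the sources used here do not give the counting command, held a median of 8.28% of the reads of the sample files for Kif20a, 29.6% for Mki67, 35.6% for Ccna2 and 66.7% for Aurka over the 32 libraries. Summed over the libraries, these 4 of the 32 members in both tables (12.5%) had under 70% of the reads in the matrix, beside 2.17% of 14673 genes. The sample files were counted without regard to strand. The values of these 4 genes are uncertain, and those of Mki67 and Kif20a are given from both tables where the results turn on them.

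**Figure D1:**
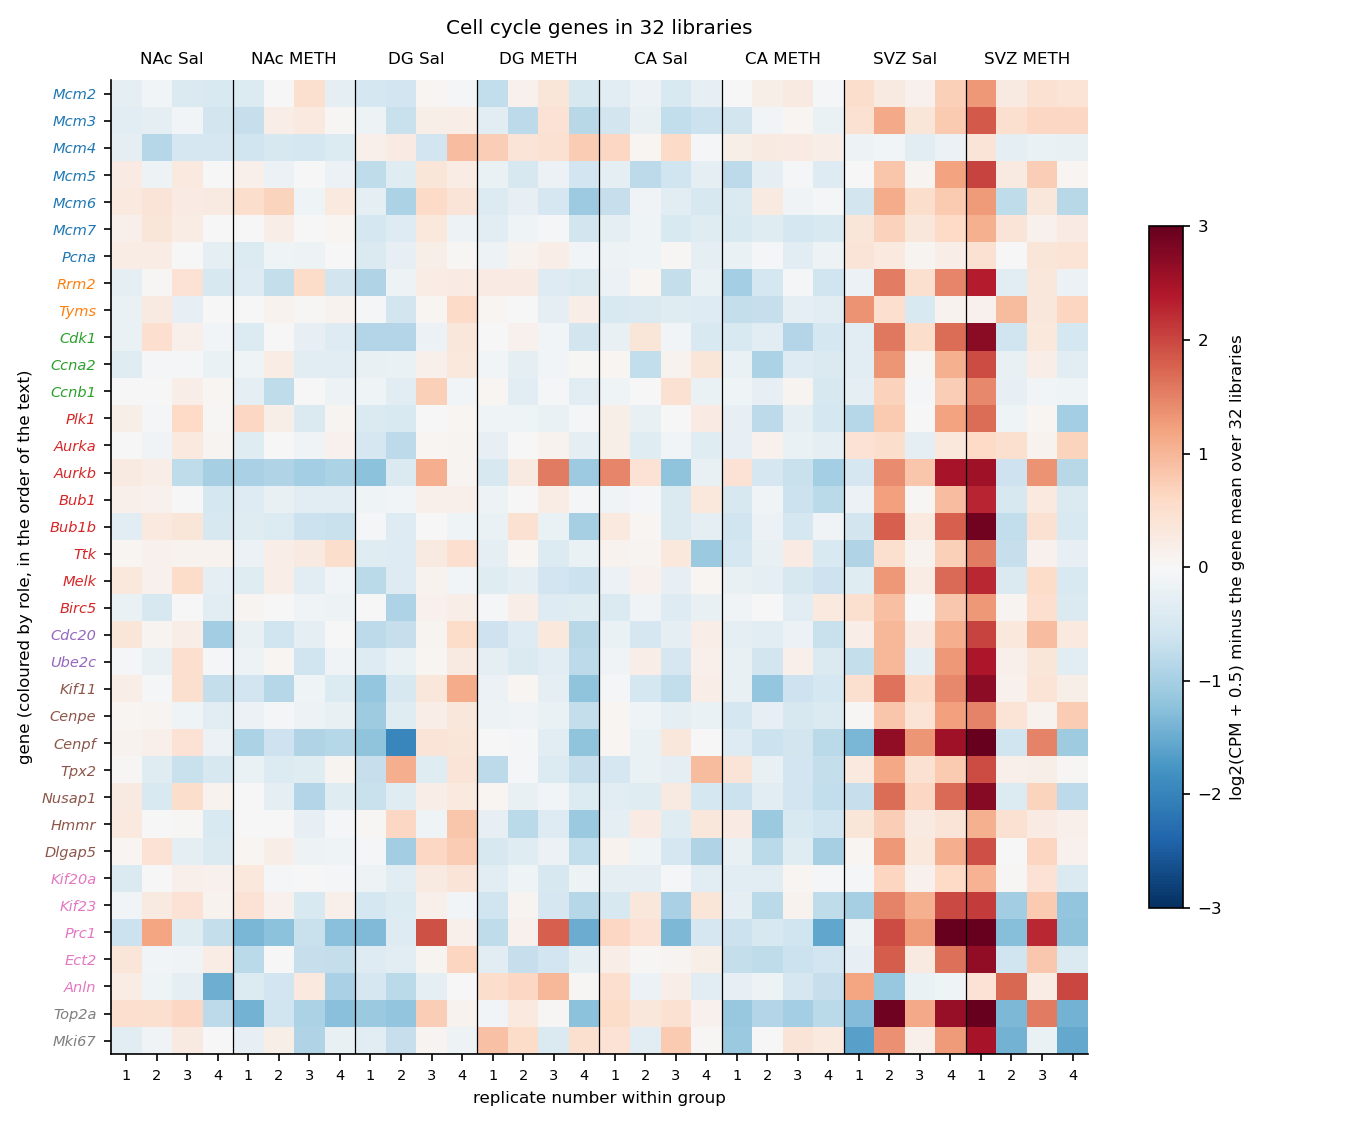
Heat map of the 36 genes (vertical axis, coloured by role) in the 32 libraries (horizontal axis, replicate number within each region and treatment). Colour is log2(CPM + 0.5) minus the mean of the gene over the 32 libraries. The columns of SVZ Sal 2, SVZ Sal 4 and SVZ METH 1 are the reddest over the mitotic genes, and SVZ METH 1 is the highest of the 8 SVZ libraries for 32 of the 36 genes.

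The first comparison asks which of these genes differ between normal regions. In saline rats the SVZ had the highest level of most cell cycle genes. Of the 34 genes that passed the filter on low counts (Melk and Ube2c did not, and Cdk1 passed it mainly through the SVZ, so that it had to differ), 33 had a positive log2 fold change against the mean of the other 3 regions, with a median of 0.86, beside a median of 0.05 over all 15515 genes tested. Cdk1 is among the 34 here and in the counts of the SVZ below, which were not made without it. By edgeR's quasi-likelihood test 26 of the 34 were higher at a raw p, not adjusted for the number of genes, under 0.05, beside 16% of all genes, and 0 were lower, beside 9.45%. At an FDR below 0.01 with more than 2-fold change, 0 members were called, beside 0.0580% of all genes higher and 0.00645% lower. DESeq2 called 3 of 36 members higher, beside 83 of 23696 genes, and 0 lower, beside 140. The count of 26 was 17 without SVZ Sal 2 and 16 without SVZ Sal 4, and without SVZ Sal 1 edgeR called 2 members.

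The replication genes had the smallest p in the saline SVZ. Mcm3, a subunit of the MCM helicase, was at 2.88, 4.9, 2.65 and 3.75 CPM in the SVZ, while the NAc had 1.43, 1.54, 1.83 and 1.17, the DG had 1.72, 1.05, 2.29 and 2.3 and the CA had 1.19, 1.61, 0.971 and 1.07 CPM. All 4 SVZ libraries lay above the 12 others. The fold change on the log2 scale was 1.24 (SE 0.21), with an FDR of 0.0142 by edgeR's quasi-likelihood test, adjusted by Benjamini-Hochberg. Mcm2, of the same helicase, was at 8.4, 6.99, 6.21 and 9.68 CPM in the SVZ, while the NAc had 4.6, 5.34, 4.09 and 4.03, the DG had 3.76, 3.67, 5.91 and 5.51 and the CA had 4.43, 4.99, 4.0 and 4.69 CPM. The SVZ libraries again lay above all others, with a log2 fold change of 0.77 (SE 0.15) and an FDR of 0.0197. Mcm7 was at 22.3, 28.2, 22 and 26.1 CPM in the SVZ, while the NAc had 19.2, 22.3, 20 and 17.2, the DG had 11.7, 12.9, 21.5 and 15.4 and the CA had 14, 15.6, 12.4 and 13.3 CPM. On the log2 scale the change was 0.61 (SE 0.13) at an FDR of 0.0272, with NAc Sal 2 within the SVZ range. Of the 7 replication fork genes 6 were higher at a raw p under 0.05, and Mcm4 was the single member with a negative value, -0.22 (SE 0.21). Both genes of nucleotide supply, Rrm2 (a subunit of ribonucleotide reductase) and Tyms (thymidylate synthase), passed the same threshold, with log2 fold changes of 1.47 (SE 0.38) and 0.69 (SE 0.25).

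Among the mitotic genes the smallest p were those of Birc5, Cenpf and Top2a. Birc5, which encodes survivin of the chromosomal passenger complex, was at 1.51, 2.19, 0.963 and 2.02 CPM in the SVZ, while the NAc had 0.754, 0.534, 0.958 and 0.66, the DG had 0.94, 0.262, 1.08 and 1.15 and the CA had 0.568, 0.844, 0.607 and 0.741 CPM. Its log2 fold change was 1.14 (SE 0.29), with an FDR of 0.0396. Cenpf, a protein of the outer kinetochore, had a log2 fold change of 2.17 (SE 0.56) at an FDR of 0.0438, and Top2a, the topoisomerase that untangles sister chromosomes, one of 1.99 (SE 0.54) at an FDR of 0.0498. Both were high in SVZ Sal 2, 3 and 4 and not in SVZ Sal 1. Top2a was at 0.755, 22.9, 6.36 and 18.4 CPM in the SVZ Sal libraries, while the NAc had 3.92, 3.87, 4.27 and 1.32, the DG had 0.94, 0.874, 4.7 and 2.88 and the CA had 4.03, 3.45, 3.76 and 2.88 CPM. SVZ Sal 1 thus lay below all 12 libraries of the other regions for Top2a. Mki67 was at 3.35, 30.4, 12.8 and 28.5 CPM in the SVZ, while the NAc had 8.9, 10.7, 13.9 and 11.4, the DG had 9.16, 6.91, 12.1 and 10.4 and the CA had 15.7, 9.06, 20.1 and 11.8 CPM. The groups overlapped, with a log2 fold change of 0.70 (SE 0.37) and a raw p of 0.0795 by edgeR's quasi-likelihood test. In the series matrix the log2 fold change of Mki67 was 1.79 (SE 0.48), with an FDR of 0.0438 by edgeR's quasi-likelihood test, and that of Kif20a was 1.48 (SE 0.39), against 0.44 (SE 0.17) in the sample files. By role, 6 of 7 spindle and kinetochore genes, 4 of 5 cytokinesis genes, 4 of 7 mitotic kinase and checkpoint genes and 2 of 3 cyclin and cyclin kinase genes were higher at a raw p under 0.05. The cyclin and cyclin kinase genes tested include Cdk1, which had to differ by the filter.

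Markers of other cells moved with this comparison. Of 8 ependymal markers 7 were tested and 7 were higher in the saline SVZ at a raw p under 0.05, with a summed level of 43.1 to 223 CPM in SVZ Sal and 12.4 to 62.8 CPM in CA Sal. All 8 striatal medium spiny markers were also higher, and 3 of 8 neuroblast markers were higher while 1 was lower. Their part in the result was not tested.

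**Figure D2:**
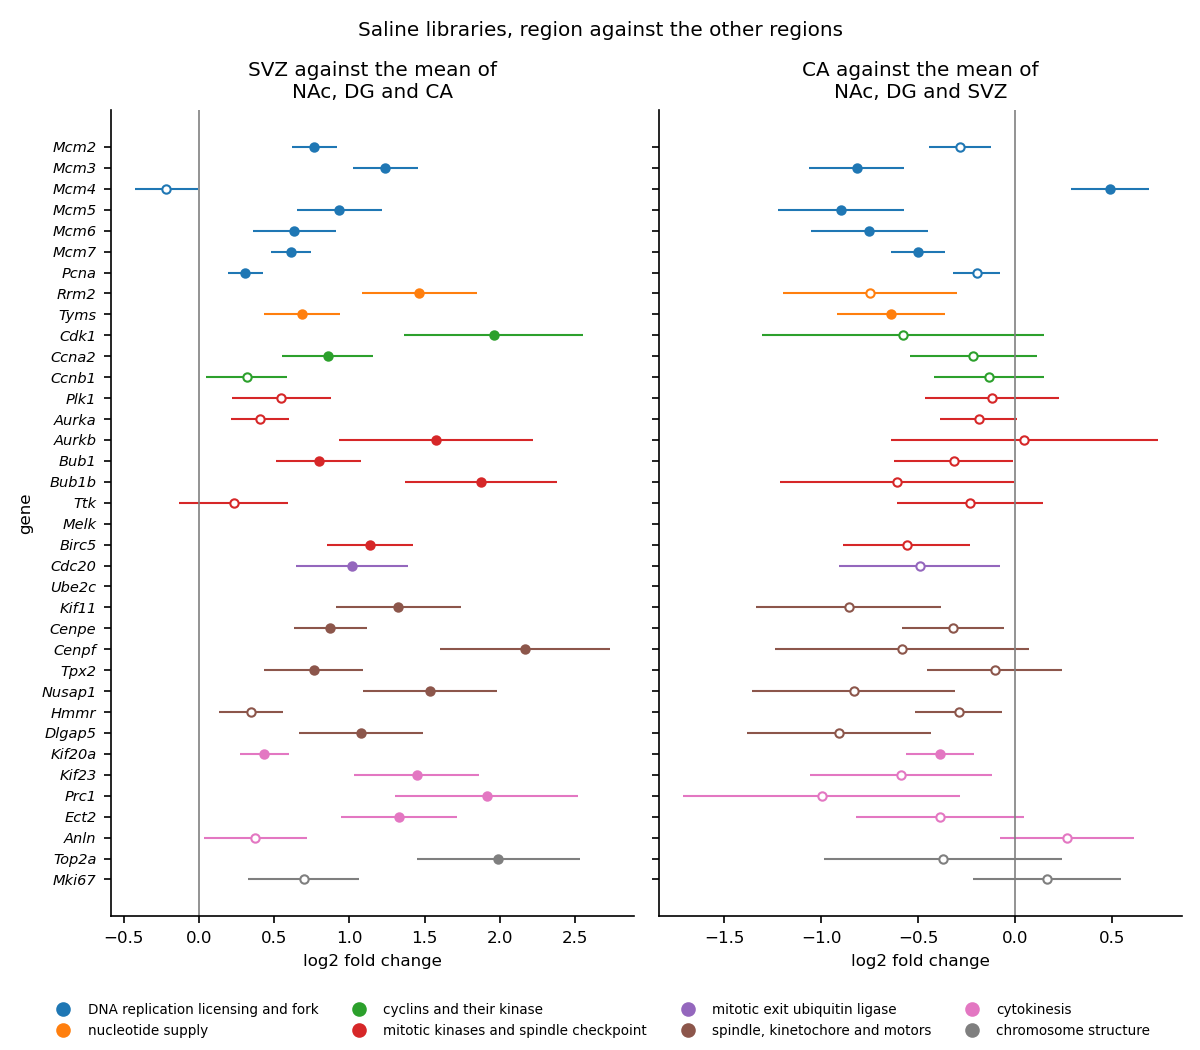
Log2 fold change (horizontal axis, points, with SE as bars) of each tested gene (vertical axis, coloured by role) in saline libraries, for the SVZ (left) and the CA (right), each against the mean of the other 3 regions. Filled points had a raw p under 0.05. In the SVZ 33 of 34 points lie above 0 and 26 are filled, and in the CA 4 of 34 lie above 0 and 7 are filled.

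Against the CA alone, which holds no neurogenic niche, the SVZ was higher for 23 of 34 genes at a raw p under 0.05, beside 19.3% of all genes, and lower for 0, beside 12.3%. By edgeR's quasi-likelihood test Mcm3 was called at an FDR of 0.00897 with a log2 fold change of 1.54 (SE 0.29), beside 0.290% of all genes called higher. This call was lost in 11 of 16 fits that left out 1 saline library, and the lone fit that called more, 2 members, was the one without SVZ Sal 1. With the replicate number as a block 0 members were called and 15 were higher at a raw p under 0.05, beside 2791 of 15515 genes. Mcm5, another MCM subunit, was at 1.79, 3.66, 1.97 and 4.84 CPM in the SVZ and 1.42, 0.844, 1.03 and 1.4 CPM in the CA, where the groups did not overlap, with a log2 fold change of 1.37 (SE 0.38) at an FDR of 0.030. Mcm7 had 0.83 (SE 0.17) at an FDR of 0.0106 and Mcm2 0.79 (SE 0.19) at an FDR of 0.0204.

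In the CA the share of members lower was near that of all genes. Of the 34 genes 6 were lower in the CA than in the mean of the other regions at a raw p under 0.05 by edgeR's quasi-likelihood test, beside 14.6% of all genes, and 1 was higher, beside 11.1%. No member was called by edgeR (0 of 34, beside 0.0387% of all genes lower and 0.226% higher). DESeq2 called 0 lower and 0 higher, beside 194 and 287 of 23696 genes. The 6 were Mcm7 at -0.50, Mcm3 at -0.82, Mcm5 at -0.90, Mcm6 at -0.75, Tyms at -0.64 and Kif20a, a kinesin of the midzone, at -0.39 (log2 fold changes). Mcm6 was at 3.81, 5.99, 5.1 and 4.53 CPM in the CA, while the NAc had 7.99, 8.68, 7.84 and 7.92, the DG had 5.25, 3.15, 9.85 and 8.63 and the SVZ had 4.25, 14.6, 9.54 and 11.5 CPM. Mcm4 went the other way, at 25.8, 17.3, 25.1 and 16.3 CPM in the CA, while the DG had 18.6, 20, 11 and 32.1, the SVZ had 15, 15.7, 13.2 and 14.8 and the NAc had 13.5, 9.01, 11.7 and 11.6 CPM. Its log2 fold change in the CA was 0.49 (SE 0.20) (raw p of 0.0291). The count of 6 was 4 with TMM normalization, 3 without CA Sal 2 and 3 without CA Sal 4. In the series matrix Kif20a was at -0.12 (SE 0.43).

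Few members differed in the DG and the NAc. In the DG 0 members were called by edgeR (0% of all genes), 0 were higher and 0 were lower at a raw p under 0.05, beside 4.72% and 2.06% of all genes. DESeq2 called 0 members higher and 0 lower there, beside 3 and 0 of 23696 genes. Without SVZ Sal 1 there were 6 lower in the DG, and without DG Sal 3 there were 2 lower and 1 higher. In the NAc DESeq2 called 0 members higher and 0 lower, beside 7 and 23 of 23696 genes. There 0 members were called by edgeR (0% of all genes), 0 were higher and 2 were lower at a raw p under 0.05, beside 8.13% and 6.92% of all genes. The 2 were Mcm4, at -0.69 (SE 0.22), and Tpx2, a spindle assembly factor, at -0.79 (SE 0.37). Tpx2 was at 4.15, 3.07, 2.35 and 2.79 CPM in the NAc, while the DG had 2.35, 9.27, 3.05 and 5.43, the CA had 2.73, 3.45, 3.28 and 8.32 and the SVZ had 5.05, 9.65, 5.78 and 7.32 CPM. The NAc and DG libraries overlapped for Tpx2. Between the 2 hippocampal regions, of which the DG holds a neurogenic niche, 0 members were called (0% of all genes; DESeq2 called 0 higher and 0 lower) and 0 were higher or lower in the DG at a raw p under 0.05, beside 5.32% of all genes higher and 3.61% lower. The smallest p was that of Mcm3, with a log2 fold change of 0.61 (SE 0.29) for the DG over the CA (raw p of 0.0542). Mki67 was lower in the DG than in the CA by value, with -0.55 (SE 0.48), as was Top2a, with -0.57 (SE 0.75). In the series matrix Mki67 had the opposite sign, 0.11 (SE 0.65).

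The second comparison asks how these genes responded to METH in each region. No member was called at an FDR below 0.01 with more than 1.5-fold change by edgeR's quasi-likelihood test in any of the 4 regions (0 of 30 tested in the NAc, 0 of 31 in the DG, 0 of 31 in the CA and 0 of 36 in the SVZ), and neither was any other gene (0% in each). DESeq2 called 1 member lower in the CA, Top2a, beside 5 of 22471 genes. In the DG it called 1 higher, Anln, beside 102 of 22775 genes. It called 0 members in the NAc, beside 1 of 22589 genes higher, and 0 in the SVZ, beside 1 of 23008 in each direction. Cdk1, Melk, Bub1b and Ube2c passed the filter in the SVZ alone, Ect2 did not pass it in the DG, Nusap1 not in the CA, and Rrm2 and Aurkb not in the NAc. The levels by sample below describe the members at a raw p under 0.05.

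**Figure D3:**
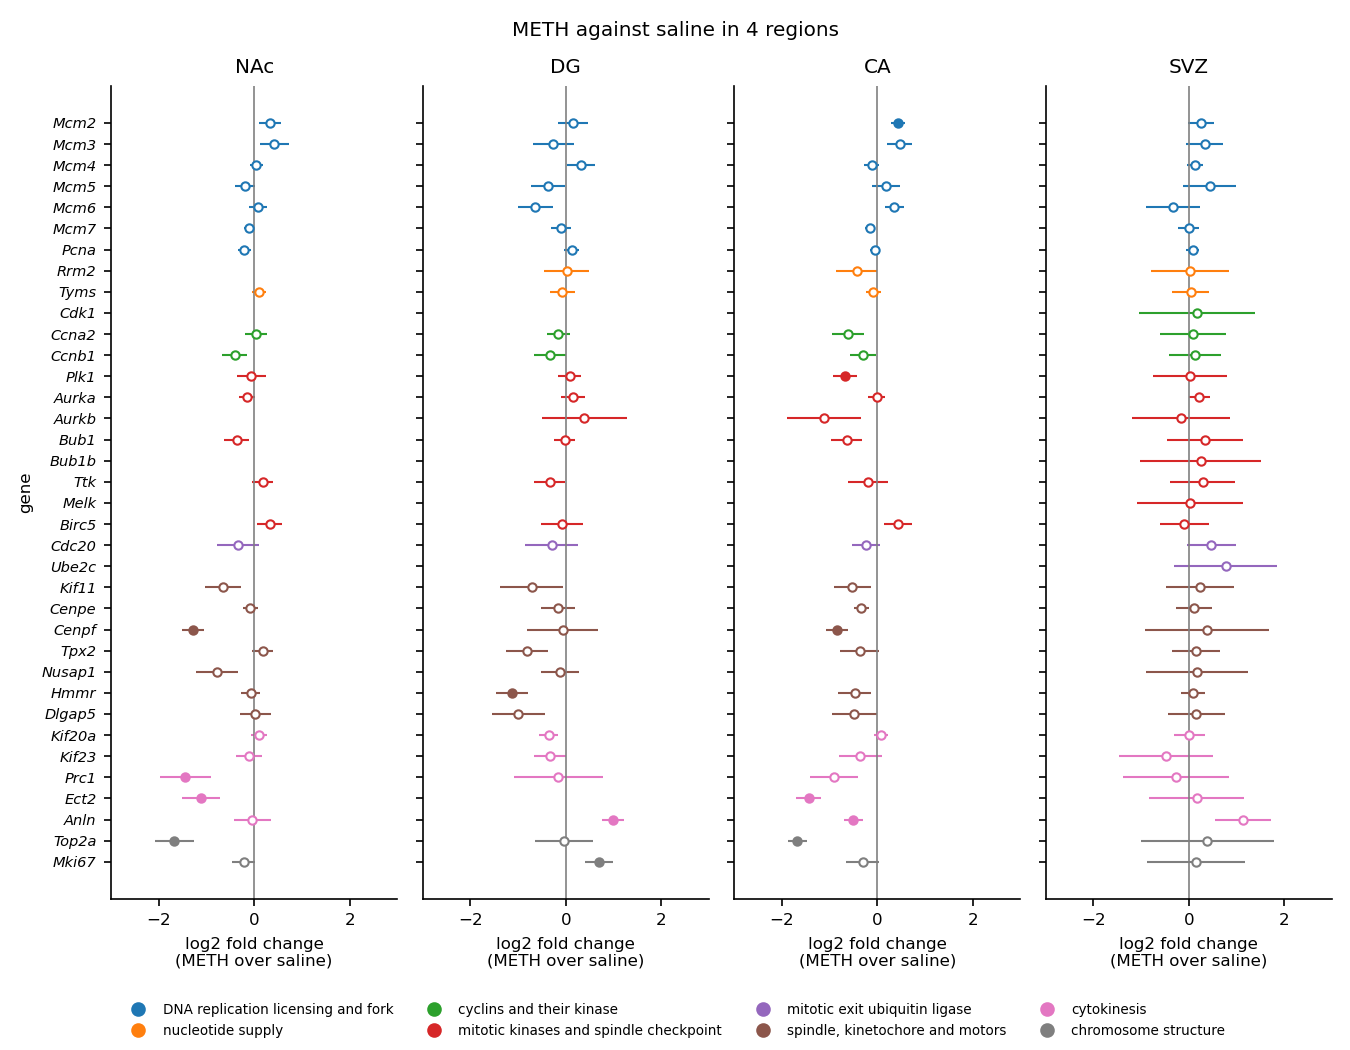
Log2 fold change of METH over saline (horizontal axis, points, with SE as bars) of each tested gene (vertical axis, coloured by role) in the NAc, DG, CA and SVZ. Filled points had a raw p under 0.05. There are 4 filled points in the NAc, 3 in the DG, 6 in the CA and 0 in the SVZ, where the bars are the widest.

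In the CA most cell cycle genes were lower in METH rats by value. Of the 31 tested, 25 had a negative log2 fold change, with a median of -0.33 beside 0.01 over all genes tested. At a raw p under 0.05, 5 were lower, beside 2.79% of all genes, and 1 was higher, beside 4.37%. The METH libraries lay wholly below the saline libraries for 4 members, Top2a, Ect2, Cenpf and Plk1 (beside 1.86% of all genes), and wholly above for 1, Mcm2 (beside 2.57%). Ect2 passed the filter on low counts through the saline libraries alone and had to differ, so that without it 4 members were lower and 3 lay wholly below. Rrm2 and Aurkb passed it through 3 saline and 1 METH libraries, which favoured a negative value, and Birc5 through 1 and 3. With no filter on low counts 6 of 36 members were positive, with a median of -0.38 beside 0.02 over all genes.

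Top2a (rn6 chr10:86901007-86932154) was at 4.03, 3.45, 3.76 and 2.88 CPM in CA Sal and 0.92, 1.18, 1.04 and 1.28 CPM in CA METH, from 71, 45, 62 and 35 and 11, 15, 16 and 18 reads. Every METH library lay below every saline library. The log2 fold change was -1.67 (SE 0.20), with an FDR of 0.0887 by edgeR's quasi-likelihood test, adjusted by Benjamini-Hochberg. Leaving out each library in turn gave log2 fold changes of -1.76 to -1.60, and with the spread shared over all 32 libraries the raw p was 0.0964 against 1.51e-05. Ect2, the exchange factor that activates RhoA at the cleavage furrow (rn6 chr2:112769385-112831476), was at 1.08, 0.921, 0.971 and 1.07 CPM in CA Sal and 0.334, 0.315, 0.389 and 0.426 CPM in CA METH. These values rested on 19, 12, 16 and 13 reads and 4, 4, 6 and 6 reads. The groups did not overlap. The log2 fold change was -1.44 (SE 0.26) at an FDR of 0.473. Cenpf (rn6 chr13:108132499-108178609) was at 2.21, 1.77, 2.79 and 2.14 CPM in CA Sal and 1.5, 1.18, 1.3 and 0.994 CPM in CA METH, from 39, 23, 46 and 26 and 18, 15, 20 and 14 reads. The highest METH library lay below the lowest saline library, with a log2 fold change of -0.85 (SE 0.23) at an FDR of 0.669. Plk1, the Polo-like kinase of mitotic entry, was at 2.16, 1.54, 1.88 and 2.31 CPM in CA Sal and 1.5, 0.867, 1.42 and 1.14 CPM in CA METH, with a log2 fold change of -0.67 (SE 0.25) (raw p of 0.0224). The gap between the groups was small beside their ranges.

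Anln, which encodes anillin, a scaffold of the cleavage furrow that is also expressed in myelinating oligodendrocytes, was at 29.4, 18.2, 23.7 and 16.2 CPM in CA Sal and 17.3, 18.2, 14.3 and 12.4 CPM in CA METH. The groups overlapped, with a log2 fold change of -0.50 (SE 0.20) (raw p of 0.0352). Mcm2 (rn6 chr4:120825699-120840111) went the other way, at 4.43, 4.99, 4.0 and 4.69 CPM in CA Sal and 5.68, 6.47, 6.99 and 5.39 CPM in CA METH. Its lowest METH library was above its highest saline library, and the log2 fold change was 0.44 (SE 0.14) at an FDR of 0.669. Mki67 was at 15.7, 9.06, 20.1 and 11.8 CPM in CA Sal and 5.02, 11.6, 15.2 and 14.1 CPM in CA METH. The Mki67 groups overlapped and its log2 fold change, -0.31 (SE 0.34), was smaller than its SE. In the series matrix the same libraries held 71, 46, 51 and 41 reads of Mki67 in CA Sal and 18, 27, 27 and 20 reads in CA METH. There the groups did not overlap, with a log2 fold change of -1.06 (SE 0.20), a raw p of 4.56e-04 and an FDR of 0.449. The 2 tables thus gave different results for Mki67 in the CA. By role, 1 of 7 replication fork genes was higher and 0 were lower at a raw p under 0.05. Among cytokinesis genes 2 of 5 were lower, Anln and Ect2, of which Ect2 had to differ by the filter. Of the spindle genes 1 of 6 was lower, and so was 1 of 6 mitotic kinase and checkpoint genes.

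The median over the group in the CA moved more with the choice of fit than the value of Top2a. With the sequencing run as a covariate (read from the headers of the counts, not given by the labels), 4 members were lower at a raw p under 0.05. They were Top2a, Ect2, Cenpf and Tpx2, and neither Plk1 nor Anln. In that fit 11 of 31 were positive and the median was -0.13. Leaving out CA Sal 1 and 2, whose counts came from 2 merged runs, gave a median log2 fold change of -0.11. The count of 5 was 3 without CA Sal 1 and 3 without CA METH 4, and 0 with 1 fit of all 32 libraries. Summed markers of several cell types stood as follows beside these genes. Those of mature oligodendrocytes were at 3105 to 6760.5 CPM in CA Sal and 2376.5 to 8384 CPM in CA METH. Microglia markers were at 229 to 271 and 241 to 323 CPM, and endothelial markers at 86.9 to 121 and 107 to 138 CPM, in the same groups. The summed level of 8 oligodendrocyte precursor markers was 291 to 332 CPM in CA Sal and 332 to 383 CPM in CA METH, with 0 of 7 tested lower at a raw p under 0.05 and 1 higher. For 8 markers of neural stem and progenitor cells the sums were 109 to 153 CPM in CA Sal and 124 to 180 CPM in CA METH, with 0 of 6 tested lower and 1 higher. Neuroblast markers summed to 430 to 534 CPM in CA Sal and 411 to 519 CPM in CA METH, with 0 of 8 lower. The 8 CA pyramidal markers summed to 845 to 1623 CPM in CA Sal and 742 to 864 CPM in CA METH, with 1 of 7 tested lower, and Fibcd1 of that list was at 0 in 30 of the 32 libraries. The part of these cells in the result was not tested.

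**Figure D4:**
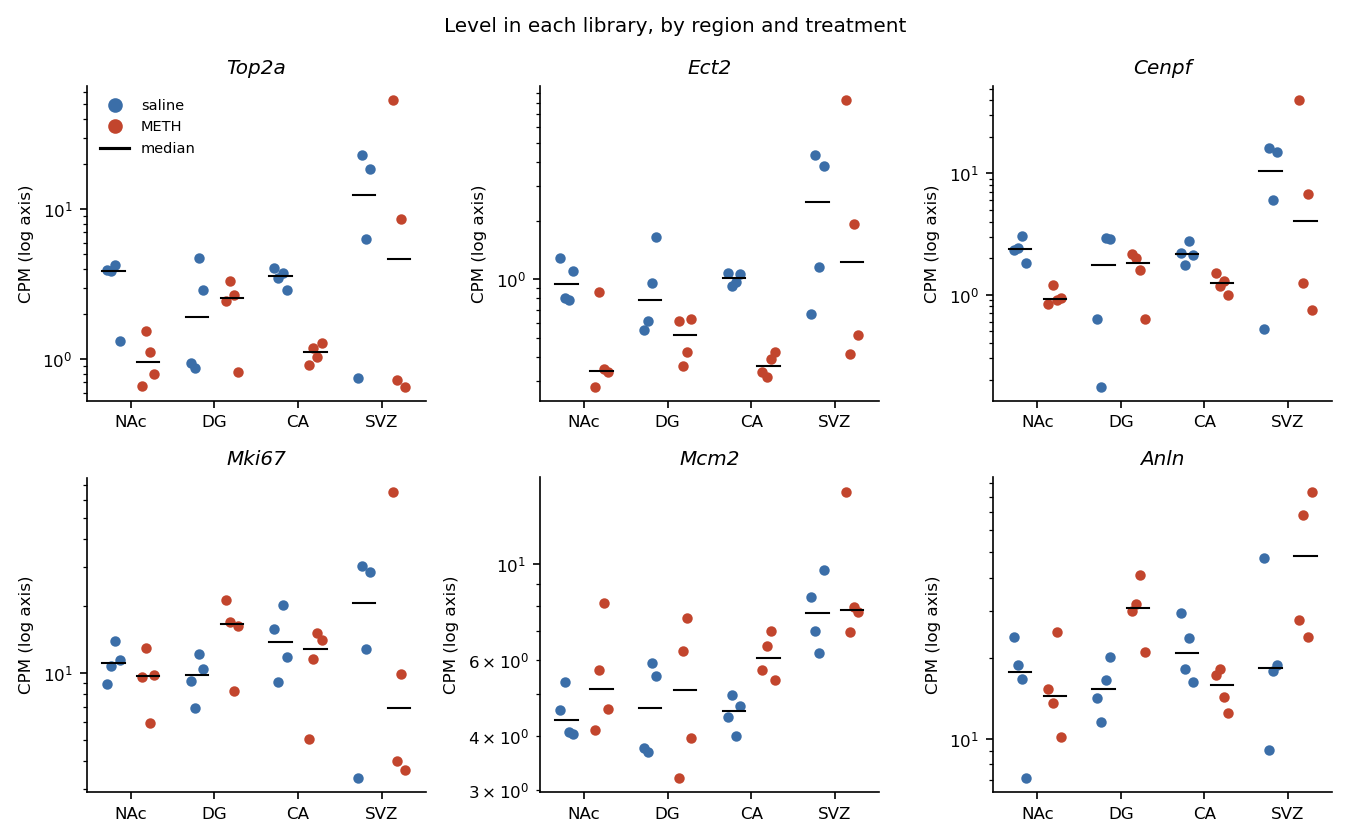
CPM (vertical axis, log scale) of Top2a, Ect2, Cenpf, Mki67, Mcm2 and Anln in each library, by region (horizontal axis) and treatment (blue saline, red METH), with the group median as a black line. In the CA the saline and METH points of Top2a, Ect2 and Cenpf do not overlap, while in the SVZ the 8 points of Top2a run from 0.657 to 53.2 CPM.

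In the NAc 11 of the 30 tested genes had a positive log2 fold change, and the median was -0.09 beside 0.03 over all genes. At a raw p under 0.05 by edgeR's quasi-likelihood test 4 members were lower, beside 0.968% of all genes, and 0 were higher, beside 2.42%. They were Cenpf, Top2a, Ect2 and Prc1, of which Cenpf alone had groups that did not overlap (1 of 30, beside 0.914% of all genes lower, and 0 higher, beside 1.35%). Ect2 passed the filter on low counts through the 4 saline libraries and 1 METH library, so that a lower level in METH was favoured, and without it the count was 3. Among the 30 tested, Nusap1 passed it through 3 saline and 1 METH libraries and Birc5 through 1 and 4.

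Cenpf was at 2.34, 2.4, 3.05 and 1.83 CPM in NAc Sal and 0.846, 1.2, 0.904 and 0.936 CPM in NAc METH, from 31, 36, 35 and 25 and 9, 14, 13 and 14 reads. The fold change on the log2 scale was -1.28 (SE 0.23), with a raw p of 4.48e-04 and an FDR of 0.999. Top2a was at 3.92, 3.87, 4.27 and 1.32 CPM in NAc Sal and 0.658, 1.55, 1.11 and 0.802 CPM in NAc METH, from 52, 58, 49 and 18 and 7, 18, 16 and 12 reads. NAc Sal 4 lay within the range of the METH libraries, and the other 3 saline libraries lay above it. The log2 fold change was -1.67 (SE 0.41) (raw p of 0.0032), and with the sequencing run as a covariate it was -1.30 (raw p of 0.0852). Ect2 was at 1.28, 0.801, 0.784 and 1.1 CPM in NAc Sal and 0.282, 0.861, 0.348 and 0.334 CPM in NAc METH. NAc METH 2 was the exception to a low level in METH libraries, and the log2 fold change was -1.11 (SE 0.40) (raw p of 0.0217). Prc1, which bundles microtubules of the midzone, was at 2.19, 9.08, 2.79 and 2.05 CPM in NAc Sal and 1.13, 1.29, 2.16 and 1.27 CPM in NAc METH. On the log2 scale the change was -1.44 (SE 0.53) (raw p of 0.0247), and without NAc Sal 2 it was -0.65 (raw p of 0.0563). Mki67 was at 8.9, 10.7, 13.9 and 11.4 CPM in NAc Sal and 9.59, 13, 5.91 and 9.83 CPM in NAc METH, with an overlap and a log2 fold change of -0.22 (SE 0.24). By the series matrix it had 55, 79, 73 and 37 reads in NAc Sal and 16, 30, 31 and 27 reads in NAc METH, which did not overlap, with a log2 fold change of -1.18 (SE 0.30) and a raw p of 0.00367. The count of 4 was 8 without NAc Sal 4 and 2 without NAc METH 1 or NAc METH 4, and 3 without NAc METH 3, the library low in striatal markers. Summed astrocyte markers were at 2532 to 3036 CPM in NAc Sal and 3091 to 4852 CPM in NAc METH, with 2 of 8 higher and 0 lower at a raw p under 0.05, and their part in the result was not tested.

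In the DG the members at a raw p under 0.05 were Anln and Mki67, both higher, and Hmmr, lower (2 of 31 beside 6.35% of all genes, and 1 of 31 beside 6.42%). The 31 tested genes had a median log2 fold change of -0.12, beside -0.01 over all genes, and 9 were positive. The share higher was near that of all genes and the share lower was below it. Groups did not overlap for Anln, higher (1 of 31, beside 3.91% of all genes), and for Hmmr, lower (1 of 31, beside 3.48%).

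Anln was at 14.2, 11.5, 16.6 and 20.1 CPM in DG Sal and 29.9, 31.8, 41 and 21.1 CPM in DG METH. All METH libraries lay above all saline libraries, with a log2 fold change of 0.99 (SE 0.24) and an FDR of 0.185 by edgeR's quasi-likelihood test, adjusted by Benjamini-Hochberg. With the sequencing run as a covariate it was 0.89 (raw p of 0.105), and without replicates 1 and 2 of both treatments 0.76 (raw p of 0.117). Hmmr, a spindle protein and hyaluronan receptor, was at 3.92, 6.12, 3.43 and 7.15 CPM in DG Sal and 3.14, 1.95, 2.82 and 1.51 CPM in DG METH. Its log2 fold change was -1.12 (SE 0.33) at an FDR of 0.243, and with the sequencing run as a covariate it was -0.44 (raw p of 0.459). Mki67 was at 9.16, 6.91, 12.1 and 10.4 CPM in DG Sal and 21.4, 17, 8.31 and 16.2 CPM in DG METH. DG METH 3, which was rich in choroid plexus markers, was within the saline range and the other 3 METH libraries were above it, with a log2 fold change of 0.70 (SE 0.29) (raw p of 0.0413). In the count matrix of the whole series the log2 fold change of Mki67 had the opposite sign, -0.56. Without replicates 1 and 2 of both treatments, whose numbers cross, it was 0.12 (raw p of 0.779). Top2a was at 0.94, 0.874, 4.7 and 2.88 CPM in DG Sal and 2.46, 3.32, 2.68 and 0.817 CPM in DG METH. The groups overlapped, with a log2 fold change of -0.04 (SE 0.61) that was 0.56 without DG Sal 3, the library rich in striatal markers, and -1.11 without replicates 1 and 2. Without DG Sal 3 the counts were 2 higher and 1 lower with 17 positive. Without replicates 1 and 2 they were 0 higher and 3 lower (Mcm6, Dlgap5 and Kif20a, and not Hmmr), beside 600 and 433 of 15368 genes. Summed markers of mature oligodendrocytes, which express Anln, were at 3322 to 12453 CPM in DG Sal and 2963 to 14811 CPM in DG METH, with 0 of 8 higher or lower at a raw p under 0.05. Summed CA pyramidal markers were at 443 to 825 CPM in DG Sal and 968 to 1863 CPM in DG METH, with 3 of 7 tested higher. The part of these cells in the result was not tested.

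In the SVZ the spread between libraries was the widest of the 4 regions, and 0 of 36 genes were at a raw p under 0.05 by edgeR's quasi-likelihood test, beside 1.19% of all genes higher and 1.39% lower. No member had groups that did not overlap (0 of 36, beside 0.847% and 0.757% of all genes). By value 30 of 36 were positive, with a median log2 fold change of 0.15, beside 0.02 over all genes. Without SVZ METH 1, 4 were positive, the median was -0.72 and 2 were lower at a raw p under 0.05, for which the share of all genes is not given here. Other choices also moved the direction by value. Without SVZ Sal 1, 14 were positive (median of -0.06), and without SVZ Sal 3, 19 (median of 0.01). With the replicate number as a block 12 were positive (median of -0.20), and with 2 and 4 RUVr factors, covariates of unwanted variation taken from residuals, 15 and 14 (medians of -0.03 and -0.09). No direction of the group held in every fit of the SVZ.

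Top2a was at 0.755, 22.9, 6.36 and 18.4 CPM in SVZ Sal and 53.2, 0.724, 8.64 and 0.657 CPM in SVZ METH. These were 16, 482, 132 and 320 reads and 999, 14, 188 and 14 reads. The 3 lowest libraries were Sal 1, METH 2 and METH 4, and the log2 fold change, 0.39 (SE 1.40), was smaller than its SE. Without SVZ METH 1 it was -1.85 (raw p of 0.194). Mki67 was at 3.35, 30.4, 12.8 and 28.5 CPM in SVZ Sal and 65.6, 3.98, 9.88 and 3.66 CPM in SVZ METH, with the same 3 libraries lowest. The fold change on the log2 scale was 0.15 (SE 1.03), and -1.68 without SVZ METH 1 (raw p of 0.0632). Cenpf was at 0.519, 16.1, 6.02 and 14.9 CPM in SVZ Sal and 40, 1.24, 6.8 and 0.751 CPM in SVZ METH, and Ect2 at 0.661, 4.33, 1.16 and 3.8 and 8.25, 0.414, 1.93 and 0.516 CPM. They kept the order of Top2a at both ends, with SVZ METH 1 the highest and the same 3 libraries the lowest.

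The order of the SVZ libraries was shared by most of the group. SVZ METH 1 was the highest of the 8 for 32 of the 36 genes, Anln and Aurka were highest in METH 4, Tyms in Sal 1 and Prc1 in Sal 4. For 20 of the 36 the 3 lowest libraries were Sal 1, METH 2 and METH 4, the 3 richest in oligodendrocyte markers and poorest in striatal markers. The highest and the lowest library were more than 10-fold apart for 14 genes, of which Top2a (81.0-fold), Cenpf (77.0-fold) and Bub1b (67.5-fold) had the widest ranges, while Pcna ranged over 1.39-fold. Dcx, a marker of neuroblasts, was also highest in METH 1, at 144 CPM, and lowest in Sal 1, at 19.3 CPM, with METH 2 and METH 4 next at 21 and 26.6 CPM. The 8 neuroblast markers summed to 678 CPM in METH 1 and to 296, 281 and 297 CPM in those 3, which were again the lowest. The part of these cells in the level of the cell cycle genes was not tested.

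Anln and Tyms had another order of the SVZ libraries. Anln was at 47.2, 9.03, 17.8 and 18.8 CPM in SVZ Sal and 27.7, 68.2, 24 and 83.6 CPM in SVZ METH, highest in the 3 libraries in which Top2a was lowest. Tyms was at 18.9, 10.3, 5.11 and 7.78 CPM in SVZ Sal and 7.88, 14.3, 9.24 and 11.5 CPM in SVZ METH, with the same 3 libraries highest. On the log2 scale the change of Anln was 1.14 (SE 0.58) (raw p of 0.0857). With the 3 oligodendrocyte-rich libraries left out, a choice made after seeing the data, 36 of 36 genes were positive with a median of 0.54 and 0 were at a raw p under 0.05, and Top2a was at 0.96 (raw p of 0.271). That fit kept 3 saline and 2 METH libraries, SVZ METH 1 among them.

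**Figure D5:**
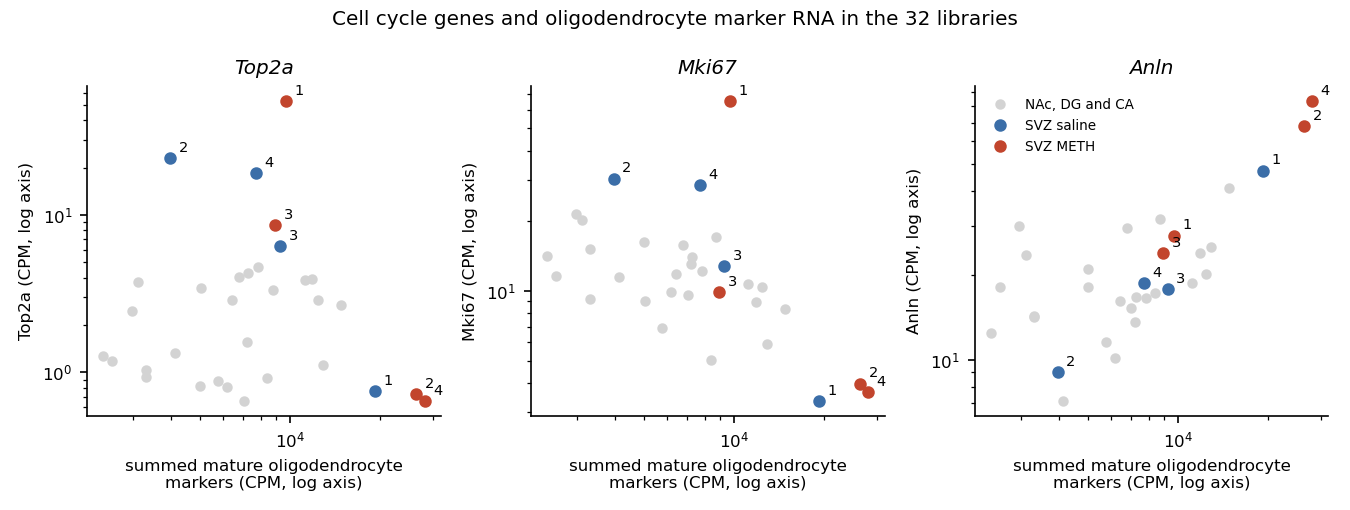
Level of Top2a, Mki67 and Anln (vertical axes, CPM, log scale) against the summed CPM of 8 mature oligodendrocyte markers (horizontal axis, log scale) in the 32 libraries, with SVZ saline in blue, SVZ METH in red (both with replicate numbers) and the other regions in grey. SVZ Sal 1, METH 2 and METH 4 lie at the right with low Top2a and Mki67 and with the highest Anln.

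The third comparison asks whether the response to METH was shared or differed between regions. In 1 fit of all 32 libraries, the mean METH effect over the 4 regions was at a raw p under 0.05 for 3 members by edgeR's quasi-likelihood test. Mcm2 was higher, with 0.29 (SE 0.13) (1 of 36, beside 4.29% of all genes), and Hmmr, with -0.40 (SE 0.15), and Ect2, with -0.82 (SE 0.34), were lower (2 of 36, beside 3.54%). DESeq2 called 0 members higher and 0 lower, beside 1 and 0 of 24549 genes. By edgeR none was called (0% of all genes), and 8 of 36 were positive. The mean effect was -0.75 (SE 0.47) for Top2a and 0.08 (SE 0.32) for Mki67, for which the series matrix gave -0.62 (SE 0.42). Without SVZ METH 1 the number lower at a raw p under 0.05 was 17. That library was the highest of the SVZ for 32 of the 36 genes. The share of all genes lower in that fit is not given here, so that the 17 cannot be set against it.

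Differences between the effect in the CA and that in another region were tested as interactions, and 0 members were called by edgeR in the 3 contrasts (all genes, 0% against the SVZ and NAc, and 0.00620% in each direction against the DG). DESeq2 called 0 members higher and 0 lower in each contrast. Beside these stood 25 genes higher and 47 lower of 24549 against the DG, and 0 in each direction against the SVZ and the NAc. Anln was the single member at a raw p under 0.05, and it was so in 2 of them. Other fits gave larger counts. For the CA minus the DG, 4 and 5 of 36 members were lower with 2 and 4 RUVr factors, beside 1575 and 1981 of 16122 genes. They were Top2a, Mki67, Anln and Cdk1, and with 4 factors also Plk1. With the 16 samples of both regions alone 3 of 32 were lower (Top2a, Plk1 and Anln), beside 1111 of 15308 genes. These shares were near those of all genes. In the 3 fits 1, 2 and 1 members were higher, Mcm6 in each and Kif20a with 4 factors, beside 1643 and 2050 of 16122 and 1242 of 15308 genes. For the CA minus the SVZ 5 of 36 were lower without the 3 oligodendrocyte-rich SVZ libraries (Top2a, Ect2, Cenpf, Bub1 and Anln), beside 303 of 16503 genes. In that fit 0 were higher, beside 258. Those libraries were left out after seeing the data. They were the 3 lowest of the SVZ for Top2a, Ect2, Cenpf and Bub1, so that the choice depends on the values counted. The count is therefore a description and not a test. The effect in the CA minus that in the SVZ was -1.63 (SE 0.59) for Anln (FDR of 0.98, with 0 of 36 higher and 1 of 36 lower, beside 2.28% and 1.51% of all genes). The effect in the CA minus that in the DG was -1.48 (SE 0.60) (FDR of 0.266, with 0 of 36 and 1 of 36, beside 7.02% and 5.85%). Against the NAc 0 of 36 were higher and 0 were lower (beside 0.527% and 0.657%). For Top2a the effect in the CA differed by -2.05 (SE 1.29) from that in the SVZ (raw p of 0.124), by -1.64 (SE 1.34) from that in the DG (raw p of 0.232) and by 0.02 (SE 1.34) from that in the NAc (raw p of 0.99). In these fits of all 32 libraries the Top2a effects were not shown to differ between regions. The sign of the contrast with the NAc depended on single libraries, and that with the SVZ was 0.18 without SVZ METH 1. For Mki67 the same 3 differences were -0.45 (SE 0.90), -1.01 (SE 0.91) and -0.08 (SE 0.92).

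Other genes of the cell cycle, 80 in a list of regulators and machinery, were tested in the same fits. In the CA 2 of 59 tested were higher and 3 lower at a raw p under 0.05, beside 4.37% and 2.79% of all genes. In the NAc 0 and 1 of 63 were so, beside 2.42% and 0.968%, in the DG 4 and 4 of 60, beside 6.35% and 6.42%, and in the SVZ 1 and 0 of 77, beside 1.19% and 1.39%. In the CA the smallest p was that of Ccnd1, the D-type cyclin of G1, with a log2 fold change of 0.52 (SE 0.07) and an FDR of 0.0979. Lin9, a subunit of MuvB, had -0.95 (SE 0.29) (raw p of 0.00932), and Gins3, of the replicative helicase, -0.70 (SE 0.22) (raw p of 0.0104). In the NAc Sgo1, which protects centromeric cohesion, had -0.90 (SE 0.29) (raw p of 0.0128). In the DG Lig1, the replicative DNA ligase, had -0.74 (SE 0.24) (raw p of 0.014), Spc25, of the Ndc80 complex, 1.24 (SE 0.44) (raw p of 0.0207) and Ccnd3, a D-type cyclin, 0.30 (SE 0.11) (raw p of 0.0215). In the SVZ Gins4 had 0.43 (SE 0.18) (raw p of 0.0437). Of the 9 inhibitors and brakes of the cycle from the list that are in the files, 6 to 8 were tested and 0 were at a raw p under 0.05 in any region. In saline rats 34 of 69 tested genes of this list were higher in the SVZ than in the mean of the other regions at a raw p under 0.05 and 2 were lower, beside the 16% and 9.45% of all genes given above.

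Within groups the members varied together. After the mean of each region and treatment was taken out, the level (log2) of a member had a Pearson r above 0.7 with the mean of the other members for 27 of 36 genes over the 32 libraries, with a median of 0.81. The points share libraries, and the SVZ libraries have the widest range. The r was 0.95 for Top2a, 0.95 for Melk, 0.94 for Cdk1 and 0.94 for Cenpf. It was 0.80 for Mki67, 0.25 for Mcm4, -0.32 for Tyms and -0.40 for Anln. Anln went instead with the summed markers of oligodendrocyte precursors, with an r of 0.79, and of mature oligodendrocytes, with an r of 0.76. Prc1 and Aurkb, the Aurora kinase of the chromosomal passenger complex, had an r of 0.91 and 0.84 with the summed ependymal markers. Prc1 was at 3.3, 15.9, 9.68 and 38.3 CPM in SVZ Sal and 33.4, 1.24, 19.6 and 1.31 CPM in SVZ METH, and the ependymal sums were highest in SVZ Sal 4 (223 CPM) and SVZ METH 3 (156 CPM).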

How the data were processed

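RNA-seq of ribosome-depleted total RNA from 32 samples was used. The authors trimmed the reads (cutadapt 2.7), checked them with FastQC 0.11.4, mapped them to rn6 with STAR 2.5.2b and deposited, for each sample, raw read counts per gene made with featureCounts 1.6.3. An Ensembl annotation (release 95) is named in the headers, whereas the methods name the UCSC annotation, and counts were made without regard to strand. Reads of overlapping genes, or of antisense partners, therefore cannot be told apart. The samples held 11094002 to 21869773 counts (median 14533166). A deposited count matrix of the series, with 14714 genes, was used as an alternative. Genes were taken by exact name, and groups from the GEO labels.

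Counts were analysed with edgeR 4.0.16, DESeq2 1.42.0 and limma 3.58.1 in R 4.3.3, and with scipy 1.17.1, pandas 2.3.3, numpy 2.4.6 and matplotlib 3.10.9 in Python 3.11.15. Each region (8 samples), the 16 saline samples and all 32 samples were fitted with edgeR's quasi-likelihood test after upper-quartile normalization and filterByExpr, with Benjamini-Hochberg adjustment over all genes tested. Members were called at an FDR below 0.01 with more than 1.5-fold (METH) or 2-fold (regions) change. A raw (unadjusted) p under 0.05 is given as a description. The labels do not say that samples are separate animals for every library, so that p-values measure the spread between these samples.

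The members, lists and tests were chosen with earlier results of these data known. By the rule for named genes, levels in every sample are given for Top2a and Mki67 in all regions, for up to 6 members with the smallest raw p under 0.05 in each METH comparison and for up to 4 in each saline comparison, and up to 3 other cell cycle genes are named for each METH comparison. Cenpf, Ect2 and Prc1 in the SVZ, Anln in the SVZ, Cdk1 in saline and the genes given with correlations were named after their values were seen. Promoter sequences are those of RefSeq (GRCr8), while gene positions of the counts are those of rn6.

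Replicates were compared within groups by a chi-square per gene (16.4 to 191 over 48 pairs), so that none was taken for a repeated library. Same-numbered samples of the treatments did not deviate together in every pair in any region (correlations of -0.25 to 0.25 in the NAc, -0.19 to 0.36 in the DG, -0.23 to 0.39 in the CA and -0.76 to 0.34 in the SVZ), so numbers were not taken as pairs. On simulated data in the design of the CA comparison (14456 genes), 45 of 100 genes changed 2-fold and 100 of 100 changed 4-fold were called, with 0 wrong calls. For the SVZ in saline (15238 genes) these were 92 and 100 of 100, with 1 wrong call. Those calls were scored at more than 1.5-fold, not at the 2-fold of the region comparisons, so that recovery at 2-fold was not measured. For the difference of the effects in the CA and SVZ (15807 genes) these were 27 and 95 of 100, with 0 wrong calls. The simulated spread was the same for all genes and narrower than that fitted in the NAc, DG and SVZ. Only genes with more reads than most members had outside the SVZ were changed. Recovery of members with few reads was therefore not measured. Alternatives were TMM normalization, other filters, DESeq2, a replicate block, the sequencing run as a covariate, RUVr factors (2 or 4), the series matrix, 1 fit of all samples and leaving out libraries. The run was read from the headers of the counts and is not given by the labels. Leaving out the 3 SVZ libraries richest in oligodendrocyte markers was added after seeing the data, as was the series matrix in the saline and all-sample fits.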

Additional observations from a re-analysis of the deposited data

Results flagged for a closer look

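In groups of 4 samples, a sample far from the other 3 was sought for 19 of the genes, in 152 combinations of gene, region and treatment. There were 14 such samples, and chance alone gives about 1 in 20. SVZ METH 1 was far above the other 3 SVZ METH libraries for 8 genes, at 5.54 CPM for Cdk1, 40.0 CPM for Cenpf, 14.7 CPM for Mcm2, 8.25 CPM for Mcm3, 21.9 CPM for Mcm4, 65.6 CPM for Mki67, 53.2 CPM for Top2a and 17.2 CPM for Tpx2. These genes vary together, so that the 8 are not separate observations. In the NAc, Ect2 was high in METH 2 at 0.861 CPM, Kif20a was high in METH 1 at 11.5 CPM, Prc1 was high in Sal 2 at 9.08 CPM and in METH 3 at 2.16 CPM, and Top2a was low in Sal 4 at 1.32 CPM. In the CA, Tpx2 was high in Sal 4 at 8.32 CPM.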

How the results depend on the processing

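The number of members passing a threshold moved with several choices, and the causes were not tested. At a raw p under 0.05, METH against saline gave in the NAc 2 members lower with the sequencing run as covariate (Cenpf and Ccnb1) and 0 in 1 fit of all 32 samples, against 4. In the DG 1 member was higher with the run (Mcm4), in the series matrix or in 1 fit (Anln in both) and 0 without replicates 1 and 2, against 2. There 3 were lower with 4 RUVr factors (Hmmr, Mcm6 and Kif20a) or without replicates 1 and 2 (Mcm6, Dlgap5 and Kif20a), against 1. Beside these 3, 1582 of 14800 genes were lower with 4 RUVr factors and 433 of 15368 without the replicates. In the CA 0 were higher and 0 lower in 1 fit, against 1 and 5. In the SVZ 1 was higher with 2 or 4 RUVr factors or in 1 fit, and 1 and 2 were lower with 2 and 4 RUVr factors, against 0. With these factors 1393 and 2045 of all 15579 genes were higher and 1071 and 1590 lower, and in 1 fit 372 of 16122 were higher. For the mean effect 8 of 36 were lower with 2 or 4 RUVr factors, against 2, beside 1186 and 1476 of 16122 genes. DESeq2 called 1 member higher in the DG (beside 102 of 22775 genes) and 1 lower in the CA (beside 5 of 22471). In saline rats it called 3 higher in the SVZ (beside 83 of 23696) and 2 higher in the SVZ against the CA (beside 320). There 1 fit called 1 in the SVZ (beside 62 of 16122 genes), and no filter called 0 in the SVZ against the CA (beside 15 of 23696).

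With the replicate number as a block, 1 member was higher in the DG, 2 were higher in the CA, and in the SVZ against the CA 0 were called and 15 were higher at a raw p under 0.05. Beside these stood 960 of 14800, 670 of 14612 and 2791 of 15515 genes higher. Under the block the log2 fold change of Top2a was 0.11 in the DG and -1.47 in the SVZ, that of Mki67 was -0.97 in the SVZ, and the Top2a effect in the CA minus that in the NAc was -0.0075. In the SVZ 12 of 36 members were positive under the block, against 30, and in the NAc of saline rats 1 was lower, against 2. Within a region the numbers were not taken as pairs of saline and METH samples. Whether a number ties libraries of different regions to a rat was not tested. The block changed no other call at the FDR threshold.

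With 2 and 4 RUVr factors the log2 fold change of Top2a was 0.26 and 0.25 in the DG and -0.41 and -0.43 in the SVZ, and that of Mki67 was -0.32 and -0.40 in the SVZ and -0.084 and -0.11 for the mean effect. With 4 factors the Mki67 effect in the CA minus that in the SVZ was 0.0072. In the series matrix Mki67 in the DG was -0.56. In saline and all-sample fits of that matrix, added after seeing the data, the log2 fold change of Mki67 was -0.81 in the CA of saline rats and -0.62 for the mean effect, that of Kif20a was -0.28 in the DG against the CA, and the effects in the CA minus those in the NAc were -0.016 for Top2a and 0.13 for Mki67.

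Leaving out each replicate in turn, members higher at a raw p under 0.05 numbered 0 to 1 in the NAc, 1 to 2 in the DG, 1 to 3 in the CA and 0 to 1 in the SVZ, and members lower 2 to 8, 1 to 4, 3 to 7 and 0 to 2. In saline rats 0 to 6 were lower in the DG, 1 to 3 in the NAc and 3 to 9 in the CA, 16 to 28 were higher and 0 to 2 called in the SVZ, and 13 to 26 were higher and 0 to 2 called in the SVZ against the CA. For the mean effect 2 to 17 were lower. The shares of all genes in these fits are not given here, so that these counts describe the members alone. The log2 fold change of Top2a ran from -0.30 to 0.56 in the DG and from -1.85 to 0.89 in the SVZ, and its effect in the CA from -2.57 to 0.18 minus that in the SVZ and from -0.13 to 0.29 minus that in the NAc. That of Mki67 ran from -1.68 to 0.50 in the SVZ, from -0.053 to 0.33 in the CA of saline rats and from -0.38 to 0.16 for the mean effect, and its effect in the CA from -0.80 to 1.37 minus that in the SVZ and from -0.25 to 0.17 minus that in the NAc. In the SVZ 4 to 33 members were positive. Of the values of results under all alternatives, 2602 kept their direction and their side of the threshold, or their count within 1.5 times, 65 counts did not, 13 single values lost the threshold, 7 gained it and 45 turned in direction.
Results that rest on the SVZ are limited by the spread of its libraries, and mitotic genes outside the SVZ by their low read counts.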
